A study of Homo sapiens with 6 samples.

Results

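The glucocorticoid receptor, encoded by NR3C1, and 8 of its known target genes were examined in MM.1S cells with and without knockdown of PRMT1. The members are NR3C1, FKBP5, DUSP1, PER1, TSC22D3, KLF9, ZBTB16, SGK1 and HSD11B1, taken by gene name from the table of 58735 genes, so they make up 9 of 58735. MM.1S, an established line derived from a human multiple myeloma, is known to respond to glucocorticoids. Cells were transfected with 100 nM siRNA and collected after 72 h, and RNA was sequenced from 3 control libraries (a non-targeting siRNA, si-NC) and 3 PRMT1 knockdown libraries (si-PRMT1, called PRMT1 KD). Both groups were grown in the same serum-containing medium, and the sources used here name no added glucocorticoid in either group. They do not say which PRMT1 siRNA was used for sequencing, and all libraries come from this 1 line. The paper calls the replicates of its experiments dependent biological replicates, without saying how they depend on each other. Nothing in the labels says that replicates were separate cultures, so p-values measure the spread between these libraries.

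The receptor is a transcription factor that rests in the cytoplasm in a complex with heat shock chaperones. When cortisol or a drug such as dexamethasone binds it, it enters the nucleus, binds glucocorticoid response elements in DNA, and recruits coactivators at induced genes or restrains factors such as AP-1 and NF-kappaB at repressed genes. In lymphoid cells and myeloma, receptor signaling is known for driving cell death, which is why glucocorticoids are used in treatment. PRMT1, the main enzyme for asymmetric dimethylation of arginine, acts with nuclear receptor coactivators.

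Promoter sequence is shown for DUSP1, FKBP5 and PER1, because these targets lay higher in every PRMT1 KD library and each held a motif searched for. Each run is the 250 bases before a RefSeq start site (GRCh38.p14, minus strand for these 3 genes), with motif matches in capitals, namely TGACGTCA (cAMP response element) and CACGTG (E-box). The FKBP5 start site is the inner one of 2 in the table.
DUSP1 chr5:172771196-172771445: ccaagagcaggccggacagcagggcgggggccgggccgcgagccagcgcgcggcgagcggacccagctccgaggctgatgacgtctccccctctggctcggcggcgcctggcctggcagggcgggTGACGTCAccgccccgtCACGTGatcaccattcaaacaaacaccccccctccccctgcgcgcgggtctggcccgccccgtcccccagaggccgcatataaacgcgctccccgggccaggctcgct
FKBP5 chr6:35688916-35689165: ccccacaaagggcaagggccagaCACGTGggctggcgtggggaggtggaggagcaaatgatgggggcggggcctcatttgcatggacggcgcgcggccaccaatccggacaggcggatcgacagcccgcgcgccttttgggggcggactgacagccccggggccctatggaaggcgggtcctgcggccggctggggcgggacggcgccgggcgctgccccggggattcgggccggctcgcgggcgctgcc
PER1 chr17:8152405-8152654: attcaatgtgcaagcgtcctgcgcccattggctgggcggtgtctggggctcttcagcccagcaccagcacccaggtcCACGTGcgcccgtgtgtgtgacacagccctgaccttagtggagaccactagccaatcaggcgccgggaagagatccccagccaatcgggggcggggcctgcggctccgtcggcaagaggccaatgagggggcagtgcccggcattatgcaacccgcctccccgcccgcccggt
Counted from the start-site base as 0, the DUSP1 cAMP response element lay at -125 to -118 and its E-box at -108 to -103. The FKBP5 E-box lay at -227 to -222 and the PER1 E-box at -173 to -168. The search ran on both strands over 300-base windows, from 250 before the start to 50 after. Across 35116 RefSeq windows, 7.26% held the E-box and 1.85% the cAMP response element. Of the 20 windows of the members, 3 held the E-box and 1 the cAMP response element. The printed promoters were chosen for holding a motif, so a motif shared among them is no result. The full palindromic glucocorticoid response element, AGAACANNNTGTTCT, was in 0.00285% of windows and in 0 of the 20 windows of the members. Its half-site AGAACA, found in 14.8% of windows, was in 1 of the 2 FKBP5 windows and in 1 of the 3 SGK1 windows (5 to 10). The FKBP5 half-site lay at 0 to 5 in the window of the outer start site, not of the printed inner one. The 7 windows of NR3C1 and the 4 of TSC22D3 held none of the 4 motifs. These letters say nothing about binding of any factor.

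Knockdown was checked first. Expression is given as FPKM, a read density corrected for gene length and library size, which allows levels to be compared between genes. PRMT1 was 61.7, 62.8 and 58.9 FPKM in the control libraries and 13.3, 14.0 and 12.5 FPKM in the PRMT1 KD libraries, and fell by 2.13 on the log2 scale (limma adjusted p = 2.77e-05). Libraries held 14439217 to 16465026 reads on genes. Of 6 plasma cell markers, 6 had a mean of at least 1 FPKM, and their summed level was 728 to 740 FPKM in control and 705 to 757 FPKM in PRMT1 KD libraries. Of these 6, CD38 was higher in every PRMT1 KD library and XBP1 and PRDM1 were lower in every one. Their log2 fold changes were 0.24, -0.13 and -0.18 (limma adjusted p = 0.193, 0.133 and 0.136). Such groups without overlap, in either direction, were found for 25.9% of all genes with a mean of at least 1 FPKM. Of 10 markers of other cell types, only CD3E reached this level (mean 35.8 FPKM), HBB was listed at 0, and the summed level was 33.6 to 37.0 FPKM in control and 37.5 to 39.9 FPKM in PRMT1 KD libraries. This sum, nearly all CD3E, moved with the groups, while CD3D, a second T cell marker, moved the other way, with 13, 11 and 7 reads in control and 5, 0 and 1 reads in PRMT1 KD libraries. The part of these markers in the results on the receptor genes was not tested. In bulk RNA, a change in the share of cells that express a gene and a change in RNA per cell cannot be told apart. Genes with a mean of at least 1 FPKM (13585) were tested with limma on log2(FPKM + 1), which understates changes of low genes. A gene is called changed at a Benjamini-Hochberg adjusted p under 0.05. This gave 279 genes, 2.05% of those tested, with 145 higher (1.07%) and 134 lower (0.986%) in PRMT1 KD. Under median scaling the split was 82 and 139, and after rescaling to TPM it was 222 and 133.

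Of the 9 members, 5 passed the expression filter and 4 did not. None of the 5 was called by limma (0 of 5, against 2.05% of all genes tested, 1.07% higher and 0.986% lower), nor in the blocked fit by replicate number (1.5% of all genes), while limma gave 4 of 5 an unadjusted p under 0.05 (19.5% of all genes, 10.1% in the higher direction). NR3C1, FKBP5, DUSP1 and PER1 had every PRMT1 KD library above every control library, a pattern held by 13.6% of all genes in that direction and by 25.9% in either. For each of these 4 the exact permutation p was 0.1. voom, which models the reads, called 2 of the 5, NR3C1 and FKBP5, where it called 6.82% of all genes. The median log2 fold change of the 5 tested members was 0.20, against 0.0095 over all genes.

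NR3C1 (ENSG00000113580, chr5:143277931-143435512, minus strand, hg38) encodes the receptor itself. It was 13.4, 11.9 and 13.7 FPKM in the control libraries and 15.7, 15.8 and 17.5 FPKM in the PRMT1 KD libraries. Every PRMT1 KD library lay above every control library, and PRMT1 KD 3 was highest. The means were 13.0 ± 0.958 and 16.3 ± 1.03 FPKM (SD, n = 3 each, limma test). The log2 fold change was 0.30 (SE 0.071, 95% interval 0.14 to 0.47) with a limma p of 0.00367 and an adjusted p of 0.0847. The exact permutation p of 0.1, two-sided, is the smallest that 3 libraries against 3 allow. Of all genes tested, 594 (4.37%) had an adjusted p at or under that of NR3C1. Behind these values were 1766 to 2444 reads per library, and each of 3 genes that overlap NR3C1 had at most 3 reads in any library. The adjusted p passed the threshold with voom (log2 fold change 0.32, adjusted p = 0.0105) and among genes with a mean of at least 5 FPKM (adjusted p = 0.0445, where 6.13% of genes were called).

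**Figure D1:**
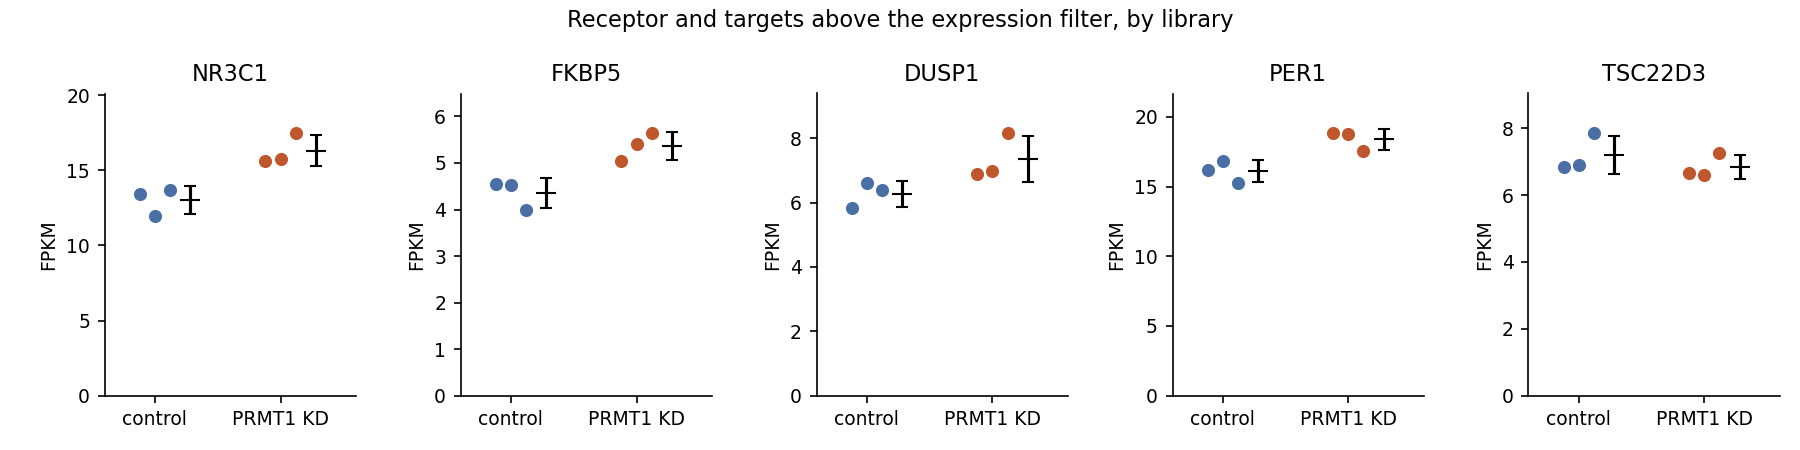
FPKM (y axis, from 0) of NR3C1 and the 4 targets above the expression filter in each of the 3 control (blue) and 3 PRMT1 KD (orange) libraries, with the mean and SD as black bars. The groups are apart for NR3C1, FKBP5, DUSP1 and PER1 and overlap for TSC22D3.

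FKBP5 (chr6:35573585-35728583, minus strand) encodes a co-chaperone that lowers the receptor's affinity for hormone and is strongly induced by it, forming a short feedback loop. It was 4.55, 4.53 and 3.99 FPKM in control and 5.05, 5.40 and 5.65 FPKM in PRMT1 KD libraries. The groups did not overlap, and PRMT1 KD 3 was again highest. The means were 4.36 ± 0.317 and 5.37 ± 0.30 FPKM (SD, n = 3 each, limma test). The log2 fold change was 0.25 (95% interval 0.079 to 0.42) with a limma adjusted p of 0.126 and, with voom, 0.0298.

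PER1 (chr17:8140472-8156506, minus strand), a repressor in the circadian clock, is a direct receptor target. It was 16.2, 16.9 and 15.3 FPKM in control and 18.9, 18.8 and 17.5 FPKM in PRMT1 KD libraries. The groups did not overlap, and here PRMT1 KD 3 was the lowest of its group. With a log2 fold change of 0.18 (95% interval 0.049 to 0.31), the limma adjusted p was 0.141. PER1 had the highest level of the 9 members, with means of 16.1 ± 0.780 and 18.4 ± 0.742 FPKM.

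DUSP1 (chr5:172768090-172771195, minus strand) encodes a phosphatase that switches off MAP kinases and carries part of the anti-inflammatory action of glucocorticoids. It was 5.83, 6.60 and 6.38 FPKM in control and 6.90, 6.98 and 8.16 FPKM in PRMT1 KD libraries. PRMT1 KD 3 was highest and PRMT1 KD 1 lay just above control 2, with a mean of 218 reads per library. The log2 fold change was 0.20 (95% interval 0.0094 to 0.385) with a limma adjusted p of 0.236, and 0.13 without PRMT1 KD replicate 3.

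TSC22D3 (chrX:107713221-107777342, minus strand) encodes GILZ, a leucine zipper protein that mediates many receptor effects in lymphoid cells. It was 6.84, 6.90 and 7.86 FPKM in control and 6.67, 6.60 and 7.26 FPKM in PRMT1 KD libraries. The groups overlapped, with control 3 highest and PRMT1 KD 2 lowest. The log2 fold change was -0.06 (95% interval -0.23 to 0.105) with a limma adjusted p of 0.672. It was -0.0055 without control replicate 3, -0.04 without PRMT1 KD replicate 2 and -0.10 without PRMT1 KD replicate 3, so its size rests on single libraries. TSC22D3 was the only tested member whose mean was lower in PRMT1 KD.

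**Figure D2:**
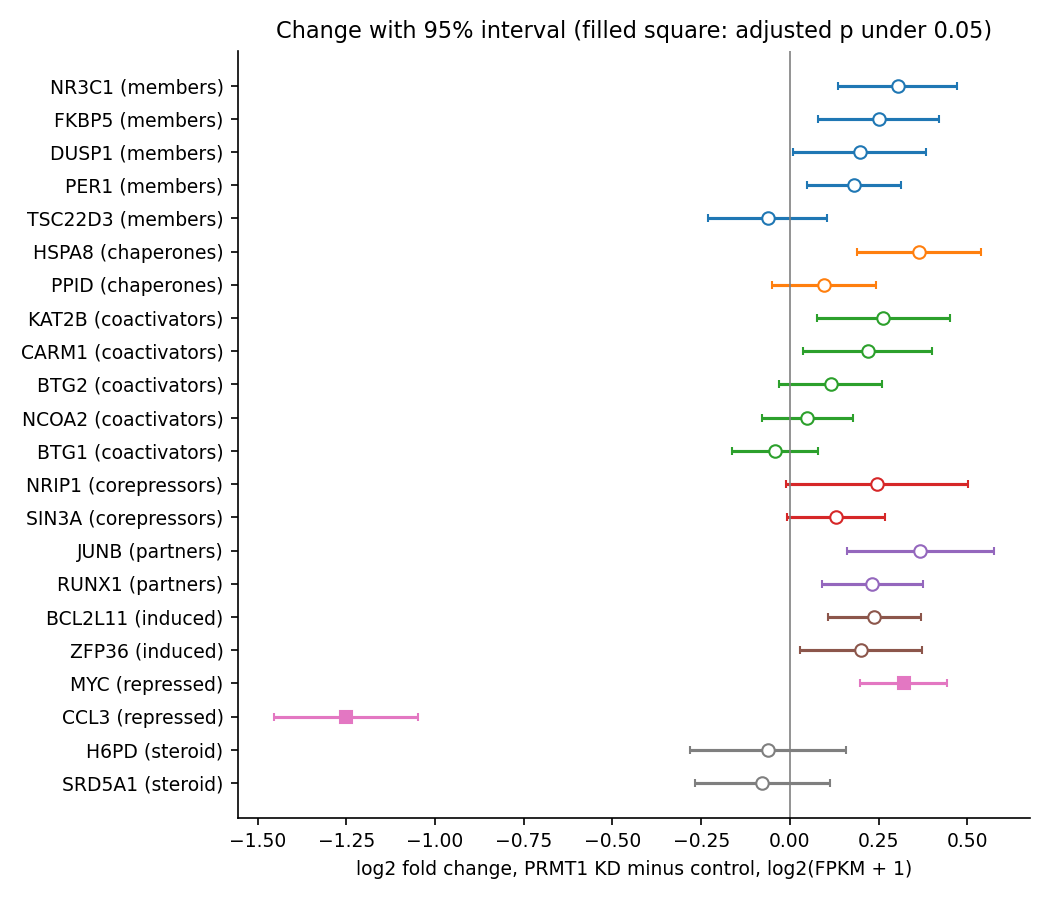
Log2 fold change on log2(FPKM + 1), PRMT1 KD minus control, with its 95% interval from limma for the 5 tested members and the named genes of the pathway lists; filled squares passed an adjusted p of 0.05. NR3C1, FKBP5, DUSP1 and PER1 lie right of 0 without passing, and only MYC and CCL3 passed.

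By mean level in FPKM, PER1 came first and NR3C1 second in both groups. Their values did not overlap in either group, although in PRMT1 KD 3 they were nearly equal, at 17.53 and 17.49 FPKM. TSC22D3 lay above DUSP1 in control libraries, at 6.84 to 7.86 against 5.83 to 6.60 FPKM. In PRMT1 KD libraries these neighbours overlapped, at 6.60 to 7.26 and 6.90 to 8.16 FPKM, and the order of their means switched. FKBP5 came below both in each group.

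The 4 members under the filter had few or no reads. KLF9 (chr9:70384597-70414624, minus strand), a zinc finger factor induced by glucocorticoids, had 4, 5 and 2 reads in control and 8, 7 and 9 reads in PRMT1 KD libraries. Its groups did not overlap, with 11 reads against 24 in all and an exact permutation p of 0.1, the smallest possible. The share of genes this low with such a pattern was not counted. The KLF9 levels were 0.0433 ± 0.0185 and 0.101 ± 0.0118 FPKM (SD), far below the tested members. ZBTB16 (chr11:114059593-114250676, plus strand), a zinc finger repressor also called PLZF, had 2, 12 and 7 reads in control and 0, 4 and 4 reads in PRMT1 KD libraries, which overlapped (exact permutation p = 0.3). HSD11B1 (chr1:209686178-209734950, plus strand), the enzyme that regenerates active cortisol from cortisone, had 1 read, in PRMT1 KD 2. SGK1 (chr6:134169246-134318112, minus strand), a kinase that controls ion transport, was listed at 0 in all 6 libraries, where 3 reads would be 0.0181 to 0.0209 FPKM. With no filter on low values, limma tested 8 members, all but SGK1, and called 0, where it called 0.103% of 34078 genes. At this depth, differences in these 4 genes could not be judged. Of 19951 protein-coding genes, 3320 (16.6%) were listed at 0 in all libraries.

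**Figure D3:**
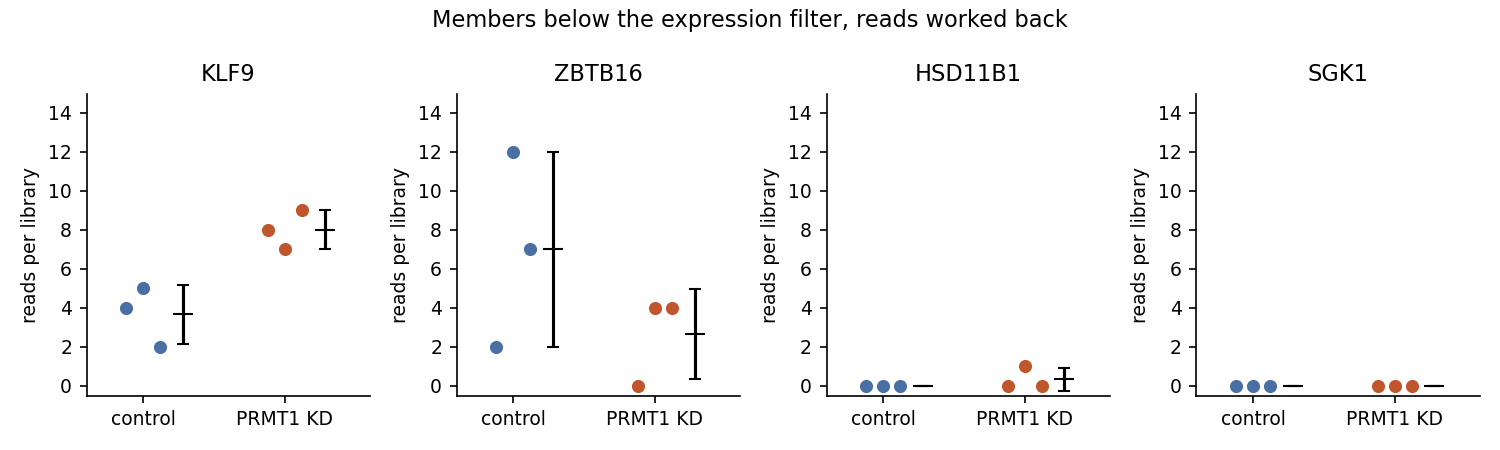
Reads worked back from FPKM (y axis, reads per library) for KLF9, ZBTB16, HSD11B1 and SGK1 in the 3 control (blue) and 3 PRMT1 KD (orange) libraries, with mean and SD as black bars. KLF9 groups are apart at 2 to 5 and 7 to 9 reads, and SGK1 is at 0 throughout.

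Targets were also set against the receptor within each library, as the ratio of target to NR3C1 FPKM, which removes any factor that scales a whole library. For FKBP5 the ratio was 0.339, 0.379 and 0.291 in control and 0.322, 0.342 and 0.323 in PRMT1 KD libraries (exact permutation p = 0.8). For DUSP1 it was 0.434 to 0.553 and 0.441 to 0.467 (p = 0.7, exact), and for PER1 1.11 to 1.41 and 1.00 to 1.20 (p = 0.5, exact). These 3 ratios overlapped between groups. For TSC22D3 the ratio was 0.509, 0.578 and 0.573 in control and 0.426, 0.418 and 0.415 in PRMT1 KD libraries. It was lower in every PRMT1 KD library, with an exact permutation p of 0.1, the smallest possible, among 4 ratios compared. Because NR3C1 itself lay higher in every PRMT1 KD library, 56.4% of the other 13584 genes tested also had a ratio to NR3C1 that was lower without overlap, so the TSC22D3 ratio is not particular to it.

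**Figure D4:**
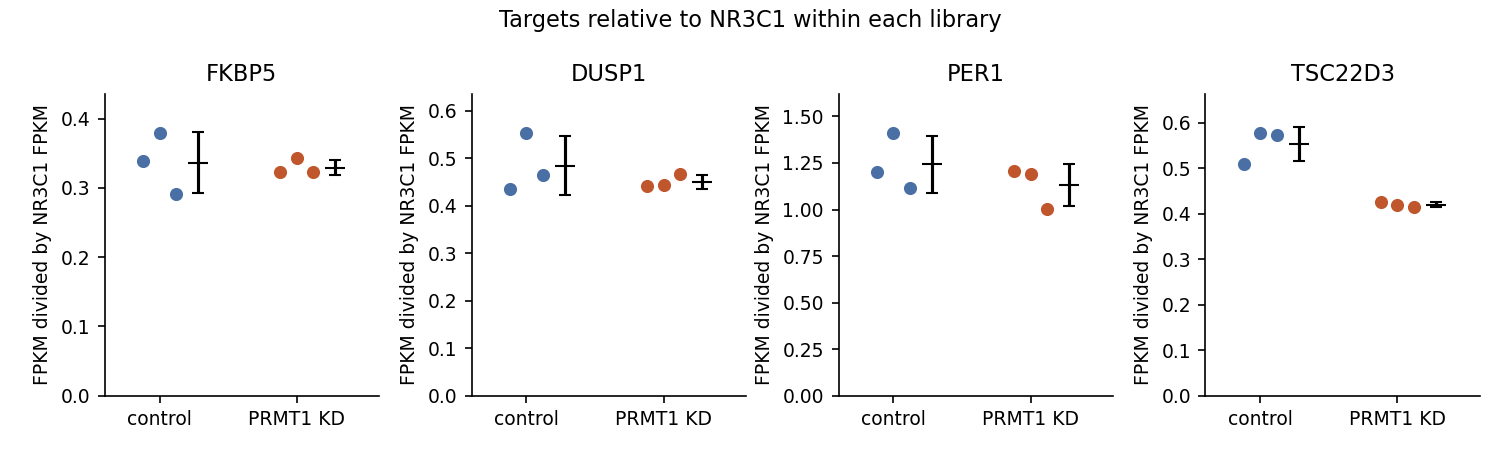
Target FPKM divided by NR3C1 FPKM in the same library (y axis, no unit, from 0) for 4 targets in control (blue) and PRMT1 KD (orange) libraries, with mean and SD as black bars. The groups overlap for FKBP5, DUSP1 and PER1, while TSC22D3 is at 0.509 to 0.578 and 0.415 to 0.426.

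The genes with the pattern most like NR3C1 over the 6 libraries were YOD1, CEP83 and AKTIP. Likeness was the root mean square difference of centred log2(FPKM + 1), at 0.0337, 0.0376 and 0.0434, among 973 protein-coding genes that varied at least as much as NR3C1. None of the 3 was called by limma (adjusted p = 0.149, 0.0955 and 0.107). They were chosen for likeness to NR3C1, itself not called, so this is no separate result.

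The rest of the pathway was described by lists of its parts, whose counts are read against all genes tested, of which limma called 2.05%, 19.5% had an unadjusted p under 0.05 and voom called 6.82%. Of 14 chaperones and co-chaperones that hold the receptor, 14 were tested and limma called 0 (1 with an unadjusted p under 0.05, and 1, HSPA8, called by voom), and the median log2 fold change was -0.01. HSPA8, the constitutive heat shock cognate chaperone, had the largest difference, from 247 ± 14.4 to 319 ± 27.5 FPKM (log2 fold change 0.36, limma adjusted p = 0.0629). HSPA8 passed in limma after quantile normalization (adjusted p = 0.0248), after rescaling to TPM (0.0339) and at a mean FPKM of at least 5 (0.0276). Its pseudogenes could share reads, and none of them had over 21 reads in a library. PPID, a cyclophilin co-chaperone, came next at 0.10 (limma adjusted p = 0.449).

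Of 17 coactivators, 17 were tested and limma called 0 (4 with an unadjusted p under 0.05, and 1, KAT2B, called by voom), with a median log2 fold change of 0.05. The largest were KAT2B, a histone acetyltransferase, at 0.26 (limma adjusted p = 0.135), and CARM1, an arginine methyltransferase that works with p160 coactivators, at 0.22 (adjusted p = 0.180). NCOA2, a p160 coactivator of the receptor, was 15.5 ± 0.838 and 16.1 ± 0.358 FPKM. BTG1 and BTG2, which bind PRMT1, were at -0.04 and 0.12 on the log2 scale. None of these differences passed.

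Of 7 corepressors, 6 were tested and limma called 0 (0 with an unadjusted p under 0.05 and 0 called by voom), with a median of 0.05. NRIP1, which binds ligand-bound nuclear receptors, was at 0.25 (limma adjusted p = 0.273) and SIN3A, a scaffold for histone deacetylases, at 0.13 (adjusted p = 0.282). Of 13 partner factors, 9 were tested and limma called 0 (2 with an unadjusted p under 0.05, JUNB and RUNX1, both called by voom), with a median of 0.09. JUNB, a component of AP-1, was 46.6 ± 4.39 and 60.4 ± 5.06 FPKM (log2 fold change 0.37, limma adjusted p = 0.0864). JUNB passed in limma with the replicate block (adjusted p = 0.0437) and at a mean FPKM of at least 5 (0.042). RUNX1, a factor of blood cell development, was at 0.23 (limma adjusted p = 0.104).

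Of 32 further genes known to be induced by glucocorticoids, 14 were tested and limma called 0 (4 with an unadjusted p under 0.05, and 2, BCL2L11 and FOXO3, called by voom, against 19.5% and 6.82% of all genes), with 7 above 0, 7 below and a median of 0.01. BCL2L11, which encodes the pro-apoptotic protein BIM, was 7.73 ± 0.0463 and 9.29 ± 0.493 FPKM (log2 fold change 0.24, limma adjusted p = 0.0847). ZFP36, which promotes decay of cytokine messages, was at 0.20 (adjusted p = 0.195). The other 18 of the 32 were under the filter.

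Of 15 genes known to be repressed by the receptor, 3 were tested and 2 called, in opposite directions, against 2.05% of all genes (1.07% higher and 0.986% lower). MYC, an oncogenic transcription factor that drives growth, was 223, 234 and 212 FPKM in control and 286, 284 and 267 FPKM in PRMT1 KD libraries. It rose by 0.32 on the log2 scale (limma adjusted p = 0.0399). The call was lost when any 1 library was left out (limma adjusted p = 0.0683 to 0.17) and under median scaling (0.0506). CCL3, a chemokine that stimulates osteoclasts in myeloma, was 20.3, 21.8 and 22.1 FPKM in control and 9.57, 7.49 and 8.31 FPKM in PRMT1 KD libraries. CCL3 fell by 1.25 on the log2 scale (limma adjusted p = 0.0039), and its near-identical copy CCL3L1 had 1 to 21 reads. With 12 of the 15 genes under the filter, the list rests on 3 genes. It was written with earlier results of these data known, so its share of calls is no separate result.

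**Figure D5:**
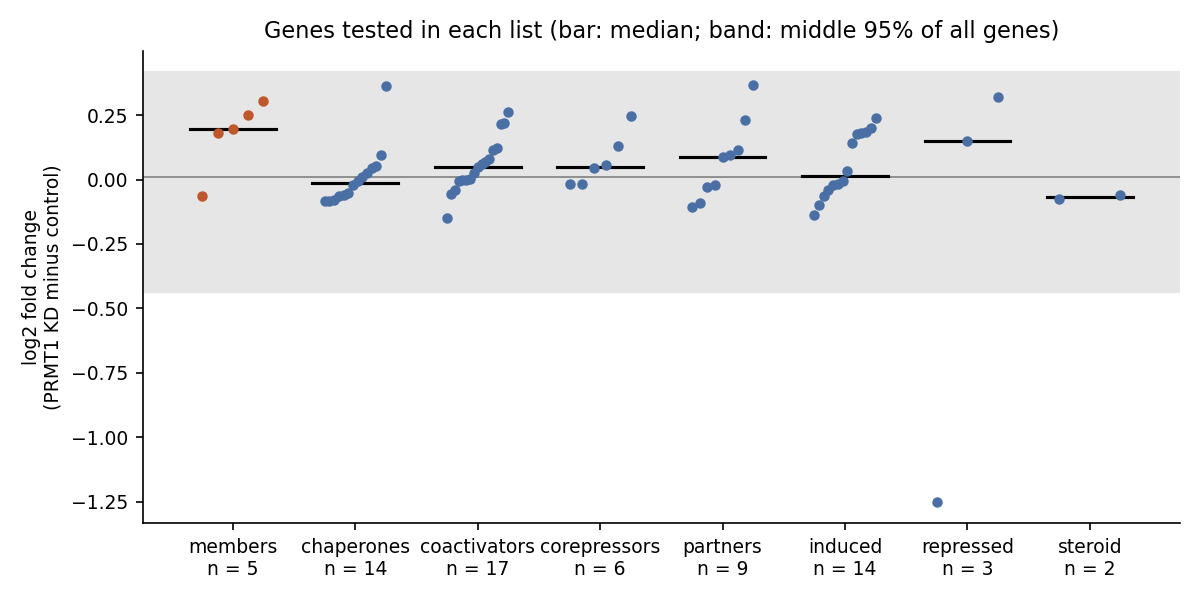
Log2 fold change (PRMT1 KD minus control) of each tested gene by list, with the median of the list as a bar, all genes' median (0.0095) as a line and the middle 95% of all genes as a grey band from -0.44 to 0.42. CCL3, at -1.25, is the only gene outside the band.

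Of 10 steroid receptor and steroid enzyme genes, 2 were tested and limma called 0 (0 with an unadjusted p under 0.05 and 0 by voom), SRD5A1 (a steroid reductase) and H6PD (which supplies cofactor to HSD11B1), at -0.08 and -0.06 on the log2 scale with limma adjusted p of 0.642 and 0.758. NR3C2, the mineralocorticoid receptor, which also binds cortisol, was under the filter at 0.40 ± 0.0367 and 0.55 ± 0.125 FPKM, with 39 to 48 and 48 to 69 reads. HSD11B2, which inactivates cortisol, had at most 1 read in any library.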

How the data were processed

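RNA-seq of 6 MM.1S libraries was used (3 control, 3 PRMT1 KD), grouped by the sample labels. The authors deposited FPKM values per gene, with gene lengths and coordinates, on hg38; the submitters' processing notes name featureCounts 1.5.0-p3. The aligner, the annotation release and strand use are not given in the sources used here. Multiplied by gene length, 100% of deposited values above 0 were whole multiples of 1 read within 0.001 reads, which gave the reads quoted (94804744 in all). Floors of 3 reads cover counting error only, while the 95% intervals of fold changes come from limma and the spread between libraries.

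FPKM as deposited was tested on the log2(FPKM + 1) scale in R 4.3.3, using limma 3.58.1 (moderated variances with a trend, two-sided, Benjamini-Hochberg over 13585 genes with a mean of at least 1). The script was tested on simulated data, where the check required recovery only of changes larger than those of the members. Single genes and ratios used an exact permutation test. Members, lists, tests and alternatives were chosen with earlier results of these data known. Named genes were the members, PRMT1, called list genes, otherwise the 2 largest differences of each list, NR3C2, BTG1, BTG2, NCOA2, HSD11B2, H6PD and the 3 genes most like NR3C1. Promoters came from RefSeq (GRCh38.p14). ZBTB16 had no window.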

Additional observations from a re-analysis of the deposited data

How the results depend on the processing

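Over 16 alternatives the log2 fold change of NR3C1 was 0.25 to 0.34, with adjusted p of 0.0105 to 0.217 (limma or voom), and 0.25 to 0.34 when each library was left out. NR3C1 passed at a mean FPKM of at least 5 (0.30) and with voom (0.32). Members called numbered 0, but 1 at a mean FPKM of at least 5 and 2 with voom, and 0 when any library was left out. The direction of each tested member held in every alternative that tested it (FKBP5 was not tested at a mean FPKM of at least 5).

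Genes called numbered 279, against 35 of 34078 with no filter on low values, 473 at a mean FPKM of at least 5, 43 without the trend, 927 with voom and 12 with an ordinary linear model. Leaving out control replicates 1, 2 and 3 gave 13, 19 and 95 calls, and leaving out PRMT1 KD replicates 1, 2 and 3 gave 34, 15 and 26. These 6 fits have fewer samples. Of the 279 calls 52.0% were higher, against 34.9% without the trend, 37.1% under median scaling and 62.5% after rescaling to TPM. List genes called numbered 2, against 1 with no filter, under median scaling, without the trend and with any library left out (1 to 1), 4 at a mean FPKM of at least 5, 8 with voom and 0 with an ordinary linear model. MYC was lost in 10 of 16 alternatives and CCL3 in 1 (ordinary linear model, adjusted p = 0.0628).

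Same-numbered libraries deviated together by 0.02 to 0.101 and others by -0.0751 to 0.0186, and every library correlated best with its own number. The labels do not say that the numbers pair the libraries. The fit without them was kept as the main one, and pairing was not settled. With the replicate block, NR3C1 was at 0.30 (limma adjusted p = 0.0589), 204 genes were called, with 0 members and 3 list genes (CCL3, MYC and JUNB, the last at an adjusted p of 0.0437 in limma).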
